A study of Rattus norvegicus with 4 samples.

Results

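The claudins of the nephron are 10 genes, Cldn1, Cldn2, Cldn3, Cldn4, Cldn5, Cldn7, Cldn8, Cldn10, Cldn16 and Cldn19, out of 14217 genes measured on a rat Affymetrix array. They were chosen by their symbols in the platform annotation, and where a gene has several probe sets, the one highest on average was taken. Kidneys of male Wistar rats weighing 300 to 480 g served as a model of donation after cardiac death: each kidney stayed in the body for 29 min after death, was flushed, and then spent 3 h on a perfusion machine in cold UW (University of Wisconsin) solution. The heparin group had low molecular weight heparin at 10 IU/ml in the cold solution and again in the modified Krebs-Henseleit buffer of a warm, oxygenated perfusion lasting 30 min. In the PPS group, an abbreviation the labels leave unexplained, PPS at 10 IU/ml took the place of heparin. The warm group had the same cold and warm perfusion with no supplement. The cold group was taken after the cold perfusion, with no warm perfusion. No kidney in these groups was spared the warm ischaemia or the cold perfusion. Each group is 1 array that read RNA mixed in equal amounts from 3 kidneys, so no difference between 2 arrays can be set against a spread between replicates.

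Claudins are membrane proteins that join neighbouring epithelial cells at the tight junction and set which ions and how much water pass between the cells. Each stretch of the nephron carries its own set: Cldn2 makes the proximal tubule leaky to sodium and water, Cldn16 and Cldn19 form the path for calcium and magnesium in the thick ascending limb, and Cldn3, Cldn4, Cldn7 and Cldn8 belong to the tight epithelium of the distal nephron and collecting duct. Cldn10 occurs in the proximal tubule and the thick ascending limb as different variants, Cldn1 belongs to the parietal epithelium of Bowman's capsule, and Cldn5 is the main claudin of endothelium. In whole-kidney RNA, fewer cells of a segment and less messenger RNA per cell cannot be told apart.

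All 10 claudins were above the floor of 4.51 on the log2 scale, the 50th percentile of all values, on all 4 arrays. The margin was smallest for Cldn7, whose lowest value lay 1.70 above the floor, and largest for Cldn10 at 8.70. Of the 10, 9 have 1 probe set and Cldn1 has 3. Of all genes, 9393 were above the floor on at least 1 array and form the background below. Over these, the middle 95% of log2 differences ran between -0.72 and 0.99 in warm minus cold, between -0.74 and 0.51 in heparin minus warm, between -0.74 and 0.49 in PPS minus warm and between -0.45 and 0.46 in heparin minus PPS. The 24 bacterial poly-A control probe sets, for transcripts spiked into the RNA, had a median of 7.67 on the heparin, 7.47 on the PPS, 7.54 on the warm and 6.41 on the cold array. The beta-actin probe set at the 3' end exceeded that at the 5' end by 3.39 on the heparin, 3.19 on the PPS, 3.22 on the warm and 2.79 on the cold array. Spike-in level and this measure of RNA quality thus set the cold array apart, and their part in the comparisons with cold was not tested.

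**Figure D1:**
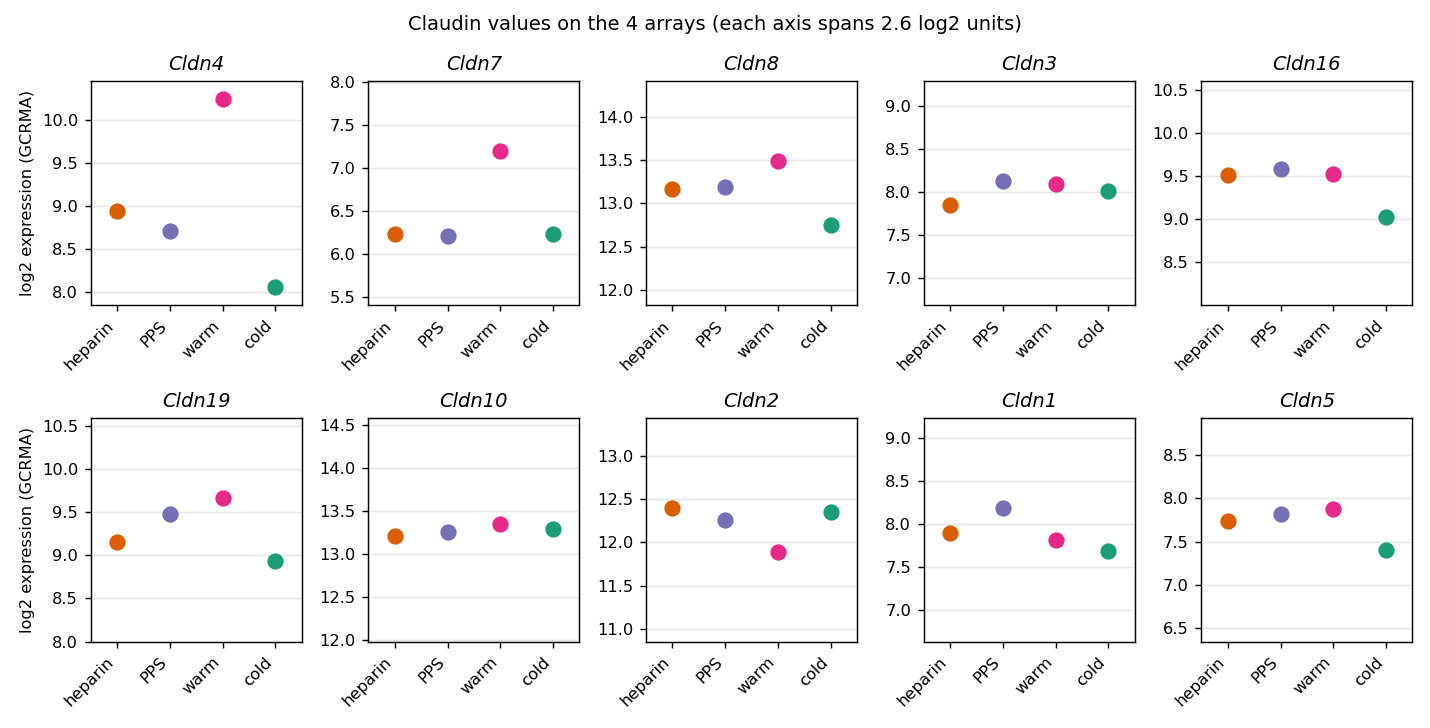
The deposited log2 expression value (vertical axis) of each of the 10 claudins is plotted for the heparin, PPS, warm and cold arrays (horizontal axis), 1 point per array, with the same span of log2 units in every panel. Cldn4 (10.24), Cldn7 (7.20), Cldn8, Cldn19, Cldn10 and Cldn5 stand highest on the warm array. Cldn2 stands lowest there at 11.89, and Cldn10 stays between 13.21 and 13.35.

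The comparison of warm with cold kidneys asks what 30 min of warm perfusion adds to cold perfusion. As deposited, 9 of the 10 claudins were higher on the warm array and 1, Cldn2, was lower, with a median log2 difference of 0.49. Scaling each array to its poly-A controls, called the poly-A scaling below, left 1 higher and 9 lower, with a median of -0.64. Over all genes, 46.0% were higher and 50.7% lower by any amount as deposited. Their median difference was -0.0032 as deposited and -1.13 on that scale. The claudin median lay above that of all genes as deposited. The scaling moves both medians by about the same amount, so it is no second check of their order. By 2-fold or more, 1 claudin was higher and 0 were lower as deposited, where 3.64% of all genes were 2-fold apart and 2.48% were 2-fold higher. With the poly-A scaling, 1 was higher and 3 were lower by 2-fold. On that scale the median of all genes, -1.13, was itself more than 2-fold lower, so the 3 do not stand out.

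The comparisons of heparin and of PPS with warm kidneys ask what each supplement, tested for anti-inflammatory properties, changes in warm-perfused kidneys. Both use the same warm array, which also serves in the comparison with cold. In heparin minus warm, 8 claudins were lower and 2 higher, with a median of -0.19, and 1 was lower by 2-fold or more. Among all genes 1.86% were 2-fold apart, 1.48% were 2-fold lower, 49.9% were higher by any amount and 46.3% lower. In PPS minus warm, 6 claudins were lower and 4 higher, with a median of -0.07 (5 and 5 with the poly-A scaling, with a median of 0.0029), and 1 was lower by 2-fold or more, against 2.23% of all genes 2-fold apart, 1.71% 2-fold lower, 46.9% higher by any amount and 49.4% lower. The claudin 2-fold apart was Cldn4 in each of the 3 comparisons. At a limit of 1.5-fold there were 4 claudins in warm minus cold (Cldn4, Cldn7, Cldn8 and Cldn19), where 10.9% of all genes passed it. In heparin minus warm and PPS minus warm, Cldn4 and Cldn7 passed it, with 5.6% and 5.5% of all genes.

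**Figure D2:**
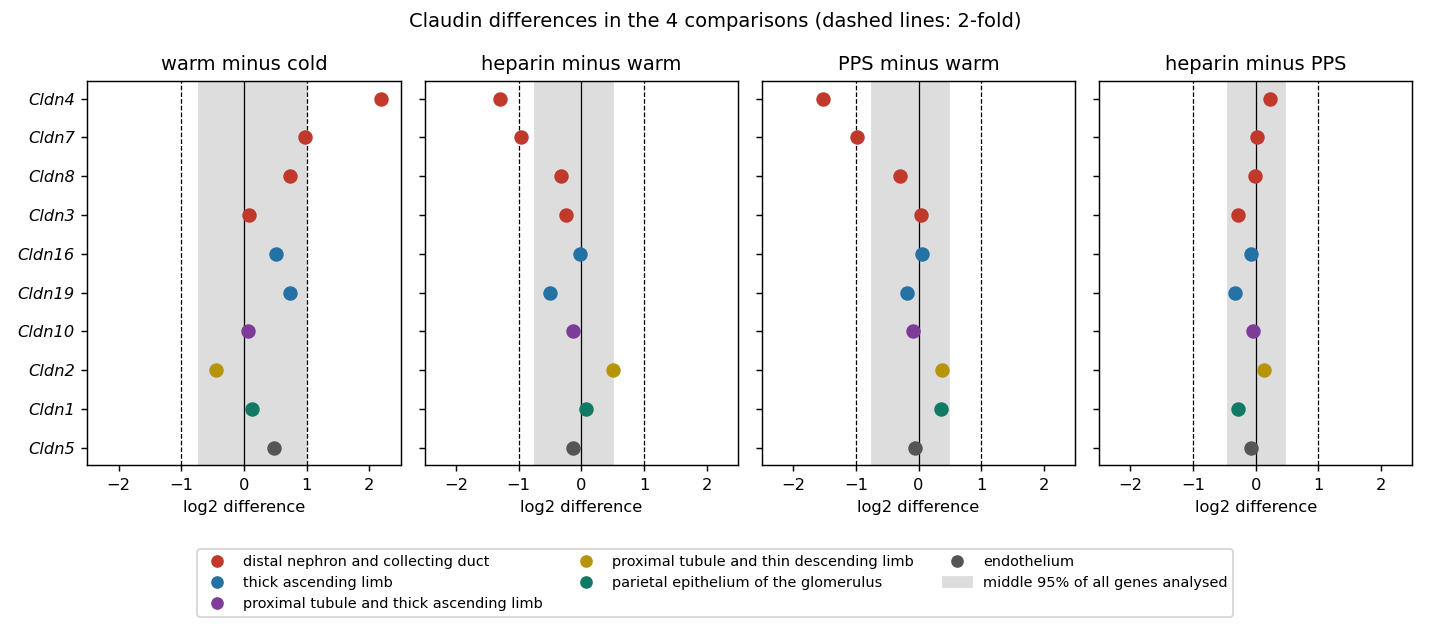
Log2 differences (horizontal axis) of the 10 claudins (vertical axis) in the 4 comparisons, coloured by nephron segment; the grey band is the middle 95% of all 9393 genes and dashed lines mark 2-fold. As deposited, Cldn4 lies outside the band at 2.18, -1.30 and -1.53 in the comparisons other than heparin minus PPS, Cldn7 at -0.97 (heparin against warm) and -0.99 (PPS against warm), and no claudin lies outside it in heparin minus PPS; with the poly-A scaling 9 of the 10 claudins are lower in warm minus cold.

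Among claudins of the distal nephron and collecting duct, Cldn4 differed most. Cldn4, a barrier claudin that in mouse collecting duct cells forms a chloride path together with Cldn8, had a log2 value of 8.95 on the heparin array, 8.71 on the PPS array, 10.24 on the warm array and 8.06 on the cold array. The warm array was the highest and the cold array the lowest, with both supplemented arrays between them and nearer to cold. The warm minus cold difference was 2.18, which is 4.53-fold, and 60 of 9393 genes had a larger positive difference. With the poly-A scaling it was 1.05, and Cldn4 was the only claudin still higher on the warm array. Cldn4 was 2.45-fold lower on the heparin than on the warm array (log2 difference -1.30) and 2.89-fold lower on the PPS than on the warm array (-1.53), with 81 and 72 genes further down in these comparisons. Set against the cold array, Cldn4 was still 1.85-fold higher with heparin and 1.57-fold higher with PPS as deposited, but these differences of 0.89 and 0.65 became -0.37 and -0.40 with the poly-A scaling. Its range over the 4 arrays, 2.18, was exceeded by 0.98% of all genes.

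Cldn7, which lies along the lateral membrane of distal nephron cells as well as at the junction, came next. Its log2 value was 6.23 on the heparin, 6.22 on the PPS, 7.20 on the warm and 6.23 on the cold array. As deposited, only the warm array stood apart. With the poly-A scaling heparin minus cold was -1.26 and PPS minus cold -1.07. Cldn7 was 1.96-fold higher on the warm than on the cold array (0.97), just inside the 2-fold limit. This difference was -0.16 with the poly-A scaling. Against the warm array it was 1.96-fold lower with heparin (-0.97) and 1.98-fold lower with PPS (-0.99). The heparin and cold values were the same to every digit deposited. Of probe sets whose lowest value lies between 5.5 and 6.5, as for Cldn7, 32.7% had equal values on at least 2 arrays, against 2.09% of those with a lowest value of 9 or more. How much of the lower Cldn7 values is set by the background model was not tested. With the floor raised to the 60th percentile, the Cldn7 differences shrank to 0.47 in warm minus cold and -0.47 in each of heparin minus warm and PPS minus warm.

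Cldn8, the partner of Cldn4 in the chloride path, was at 13.17 on the heparin, 13.18 on the PPS, 13.49 on the warm and 12.75 on the cold array. Warm exceeded cold by 0.74, or 1.67-fold (-0.39 with the poly-A scaling). As deposited, the supplemented arrays lay between them, 0.32 (heparin) and 0.30 (PPS) below warm. Cldn3, a sealing claudin, had 7.85 on the heparin, 8.12 on the PPS, 8.09 on the warm and 8.0 on the cold array. Its range of 0.28 was exceeded by 51.8% of all genes, so Cldn3 did not share the high warm value of Cldn4. Cldn3 and Cldn4 are close neighbours on chromosome 12 in the annotation of the rat assembly GRCr8, with 2 pseudogenes and no protein-coding gene between them.

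The sequences around the starts of Cldn7 and Cldn8 are shown because these were, after Cldn4, the distal claudins with the largest warm minus cold differences. RefSeq sequences of GRCr8, from 250 bases before to 50 after the start, were found for 8 of the 10 claudins, not for Cldn4 and Cldn2. Both strands were searched for the AP-1 motif TGANTCA, the cAMP response element TGACGTCA and an NF-kappaB motif of GGGA and CC with any 4 bases between them, chosen after the values were known. Matches are in capitals.
Cldn7, GRCr8 chr10:55188420-55188719, plus strand: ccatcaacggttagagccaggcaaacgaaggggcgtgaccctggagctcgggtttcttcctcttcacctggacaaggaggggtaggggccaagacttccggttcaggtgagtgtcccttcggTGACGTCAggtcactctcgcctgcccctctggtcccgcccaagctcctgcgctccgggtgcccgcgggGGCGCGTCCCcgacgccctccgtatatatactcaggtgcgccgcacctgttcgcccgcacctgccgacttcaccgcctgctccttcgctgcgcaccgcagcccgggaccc
Cldn8, GRCr8 chr11:41364281-41364580, minus strand: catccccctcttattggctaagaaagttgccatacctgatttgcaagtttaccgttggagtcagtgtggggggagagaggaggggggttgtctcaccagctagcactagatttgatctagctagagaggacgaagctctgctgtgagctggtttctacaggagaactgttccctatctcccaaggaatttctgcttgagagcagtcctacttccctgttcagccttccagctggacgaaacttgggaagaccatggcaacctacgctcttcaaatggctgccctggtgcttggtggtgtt
The Cldn7 window holds a cAMP response element, TGACGTCA, at 128 to 121 bases before the start and an NF-kappaB match on the other strand, GGCGCGTCCC, at 60 to 51 bases before it. The 2 matches do not overlap. The Cldn8 window holds none of the 3 motifs. Among the 8 claudin windows, 0 held the AP-1 motif, 1 the cAMP response element and 2 the NF-kappaB motif (Cldn7 and Cldn3). Of 33469 windows of this length, 7.33%, 1.83% and 19.3% held them in that order. A match describes the letters and shows no binding.

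Both claudins of the divalent cation path of the thick ascending limb were higher after warm perfusion as deposited and lower with the poly-A scaling. Cldn16, which in humans is mutated in an inherited loss of magnesium and calcium into the urine, had 9.51 on the heparin, 9.58 on the PPS, 9.53 on the warm and 9.02 on the cold array. The 3 warm-perfused arrays lay within 0.1 of each other and about 1.4-fold above cold: the difference was 0.49 for heparin, 0.56 for PPS and 0.51 for warm. With the poly-A scaling these 3 differences were -0.77, -0.49 and -0.62. Cldn19, which pairs with Cldn16, had 9.16 on the heparin, 9.48 on the PPS, 9.66 on the warm and 8.93 on the cold array. Warm exceeded cold by 0.73, or 1.66-fold (-0.40 with the poly-A scaling). The heparin array was 0.50 below warm and the PPS array 0.18 below it. Heparin minus PPS was -0.32, the largest size of difference among the 10 claudins in that comparison. Cldn10 varied least of the 10, with 13.21 on the heparin, 13.26 on the PPS, 13.35 on the warm and 13.30 on the cold array. A larger range than its 0.14 was found in 82.0% of all genes. The annotation does not say which Cldn10 variant its probe set reads.

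Cldn2 was the claudin with its lowest value on the warm array. This cation and water pore of the proximal tubule had 12.40 on the heparin, 12.26 on the PPS, 11.89 on the warm and 12.35 on the cold array. As deposited, the arrays other than warm lay close together. Warm minus cold was -0.45, or 1.37-fold lower (-1.58 with the poly-A scaling). The heparin array exceeded the warm array by 0.51 and the PPS array exceeded it by 0.37. Heparin minus cold was 0.05 and PPS minus cold -0.08 as deposited, but -1.21 and -1.14 with the poly-A scaling. The heparin minus warm difference of 0.51 lies at the upper edge of the middle 95% of genes, and 235 genes had a larger one.

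Cldn1, the claudin of the parietal epithelium, had 7.90 on the heparin, 8.18 on the PPS, 7.82 on the warm and 7.68 on the cold array. The PPS array was the highest, 0.37 above warm and 0.50 above cold. A further Cldn1 probe set had the PPS array lowest and the cold array highest: it was at 5.03 on the heparin, 4.83 on the PPS, 5.12 on the warm and 5.27 on the cold array. The remaining one was below the floor on all 4 arrays. Averaging the 3 probe sets gave -0.01 in warm minus cold and 0.03 in PPS minus warm, so no direction is given for Cldn1. Cldn1 and Cldn16 are neighbours on chromosome 11, with 1 pseudogene between them. Cldn5, of endothelium and also known from podocytes, had 7.74 on the heparin, 7.82 on the PPS, 7.87 on the warm and 7.40 on the cold array. As with Cldn16, the cold array was the lowest, by 0.34 against heparin, 0.42 against PPS and 0.48 against warm. With the poly-A scaling Cldn5 in warm minus cold was -0.65.

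Markers of the same segments, from lists chosen with earlier results of these data known, differed in the same direction as several claudins. All 10 markers of collecting duct principal cells were higher on the warm than on the cold array as deposited, with differences between 0.02 and 1.61 and a median of 0.69 (-0.44 with the poly-A scaling). Their median log2 level was 10.08 on the heparin, 9.94 on the PPS, 10.94 on the warm and 9.75 on the cold array, and none was at the floor. The water channel Aqp4 differed most: it had 9.72 on the heparin, 9.64 on the PPS, 10.92 on the warm and 9.30 on the cold array. Aqp2 and Aqp3, the other water channels of these cells, differed by 0.07 and 0.02 in warm minus cold. The differences of Cldn8 (0.74) and Cldn7 (0.97) lay within the range of these markers, that of Cldn3 (0.08) near its lower end, and that of Cldn4 (2.18) above all 10. In heparin minus warm all 10 were lower, with a median of -0.52; Aqp4 (-1.20) and the sodium channel subunit Scnn1a (-1.07) were 2-fold lower. In PPS minus warm all 10 were lower, with a median of -0.47, and Aqp4 (-1.28) was 2-fold lower. Cldn4 was lower than every one of them in both comparisons. The 6 intercalated cell markers had medians of 0.65 in warm minus cold (-0.48 with the poly-A scaling), -0.65 for heparin against warm and -0.44 for PPS against warm. The part of cell composition in the claudin differences was not tested.

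For the thick ascending limb, 6 markers were all higher on the warm than on the cold array as deposited, by 0.13 to 0.51, with a median of 0.36 (-0.77 with the poly-A scaling). Cldn16 (0.51) lay at the top of that range, Cldn19 (0.73) above it and Cldn10 (0.06) below it. The 2 distal convoluted tubule markers above the floor, Slc12a3 (0.71) and Calb1 (0.50), were close to Cldn19 and Cldn16, while Pvalb and Trpv5 were at the floor. Of 11 proximal tubule markers 9 were lower on the warm array, as was Cldn2, with a median of -0.24 (-1.37 with the poly-A scaling). The lactate transporter Slc5a12 (-1.03) was 2-fold lower. In heparin minus warm these markers had a median of 0.03 and a highest value of 0.35, and Cldn2 (0.51) lay above all of them. In PPS minus warm 10 of them were higher and 1 lower. Their median there was 0.18 and their highest value 0.33, with Cldn2 at 0.37. The 7 podocyte and parietal epithelium markers had a median of 0.77 in warm minus cold (-0.36 with the poly-A scaling), led by Nphs1 (1.06) and Wt1 (1.01). Cldn1, at 0.13, lay between Pax8 (0.05) and Pax2 (0.29) of that list, both named after their values were seen. The 11 endothelial markers had a median of 0.33 (-0.80 with the poly-A scaling), near Cldn5 (0.48), with Vwf at -0.95, Flt1 at 0.50 and Esam at 0.48.

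**Figure D3:**
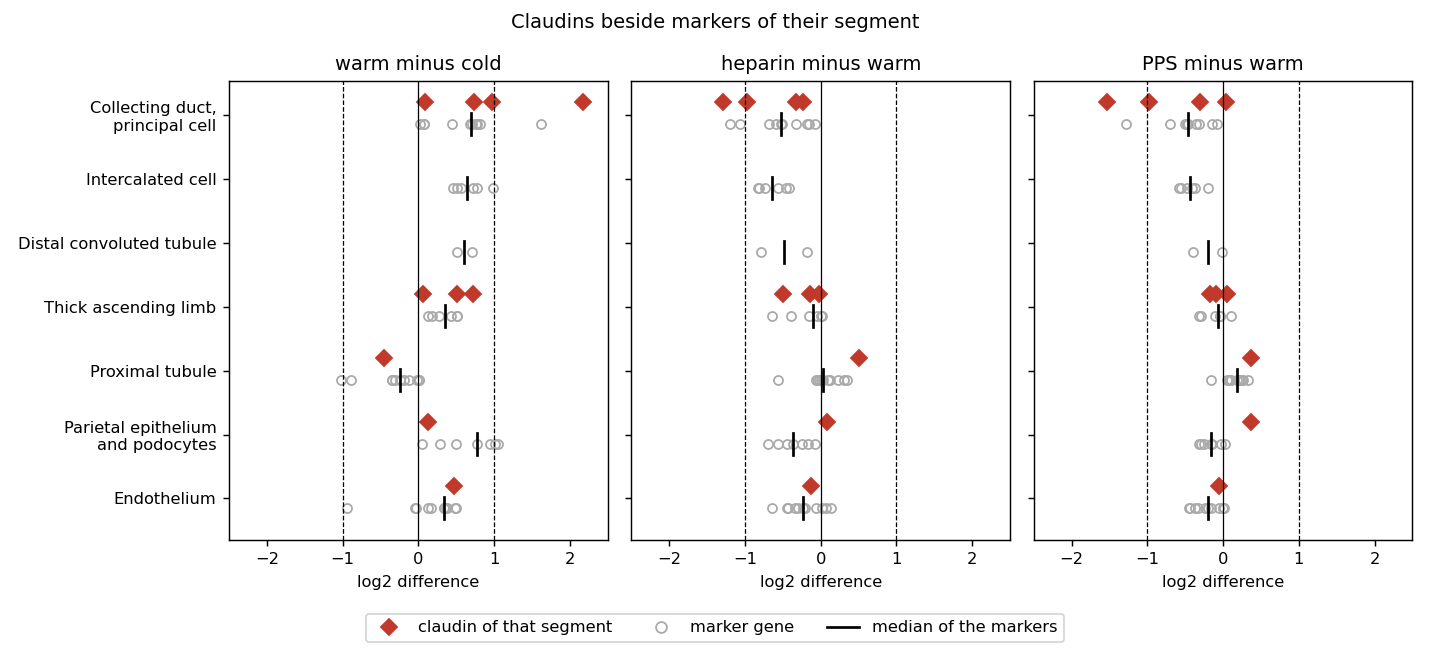
Log2 differences (horizontal axis) of claudins (red diamonds) above the markers of their segment (open circles, with the median as a bar) for warm minus cold, heparin minus warm and PPS minus warm; Cldn10, which occurs in 2 segments, is drawn with the thick ascending limb, and dashed lines mark 2-fold. As deposited, Cldn4 (2.18) lies beyond all 10 principal cell markers, of which Aqp4 is highest at 1.61; with the poly-A scaling the marker median of that list is -0.44.

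Markers of other cells in the pooled tissue differed as well. Of 8 smooth muscle, pericyte and fibroblast markers above the floor, all were lower on the warm than on the cold array. Their median was -1.21 (-2.34 with the poly-A scaling). Tagln, Pdgfrb, Col1a1, Col1a2, Col3a1 and Dcn were 2-fold lower, where 3.64% of all genes were 2-fold apart and 2.48% 2-fold higher. The 8 markers had a median of 0.46 for heparin against warm and 0.74 for PPS against warm. In PPS minus warm Col1a1, Col1a2 and Col3a1 were 2-fold higher, where 2.23% of all genes were 2-fold apart and 1.71% 2-fold lower. Des and Rgs5 of that list were at the floor. The 6 leukocyte markers had medians of 0.13 in warm minus cold, -0.30 for heparin against warm and -0.09 for PPS against warm. Of the fat cell list only Fabp4 (0.64 in warm minus cold, -1.28 for heparin against warm) and of the red blood cell list only Hbb (-1.14 in warm minus cold) were above the floor. With the poly-A scaling Fabp4 was at -0.49 and Hbb at -2.27 in warm minus cold. The part of these shifts in the claudin differences was not tested.

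Heparin and PPS were set against each other at the same 10 IU/ml and the same times. In heparin minus PPS 0 of the 10 claudins were 2-fold apart, where 0.49% of all genes were. At 1.5-fold there were also 0 claudins, where 2.68% of all genes passed. The claudin median was -0.06, with 3 higher and 7 lower, where 51.7% of all genes were higher and 43.5% lower (for claudins 1 and 9 with the poly-A scaling, which moves all genes by -0.19 in the median). Differences ran from -0.32 for Cldn19 to 0.23 for Cldn4, inside the middle 95% of all genes. With 1 array each, this does not show that the supplements act alike on claudins.

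All 3 warm-perfused arrays were compared as a group with the cold array by limma, a linear model fitted over all 9393 genes. Its 2 residual degrees of freedom mix effects of the supplements with chance, and the lone cold array is assumed to vary like the others. At a Benjamini-Hochberg adjusted p under 0.05, limma called 0 of the 10 claudins, where 0.0106% of all genes were called. At an unadjusted p under 0.05 there were 2 claudins, Cldn16 and Cldn5, where 16.2% of all genes reached this. Cldn16 averaged 9.54 on the warm-perfused arrays and 9.02 on the cold array, a difference of 0.52 ± 0.06 (limma standard error; adjusted p = 0.21 by limma). Cldn5 averaged 7.81 and 7.40 on these, a difference of 0.41 ± 0.08 (adjusted p = 0.22 by limma). Cldn4 averaged 9.30 on the warm-perfused arrays and 8.06 on the cold array, a difference of 1.24 ± 0.77 (adjusted p = 0.52 by limma). Without the warm array the Cldn4 difference was 0.77, and with the poly-A scaling of all 4 arrays it was 0.09.

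Other tight junction genes above the floor differed less in warm minus cold than Cldn4, the claudin with the largest difference. Of 20 tight junction partners above the floor, 14 were higher and 6 lower on the warm than on the cold array, 0 of them by 2-fold, with a median of 0.20 (-0.93 with the poly-A scaling). The scaffold protein Mpdz had the largest size of difference (-0.59), followed by cingulin, Cgn (0.49), and the adhesion molecule Jam2 (0.49). Occludin, Ocln, had 11.53 on the heparin, 11.48 on the PPS, 11.72 on the warm and 11.29 on the cold array, and Tjp1, which encodes the scaffold ZO-1, had 11.32, 11.18, 11.38 and 11.17 in the same order; both were named after their values were seen. With heparin or PPS against warm, 0 of the 20 were 2-fold apart, and the medians were -0.0042 (heparin) and -0.05 (PPS). Of 12 adherens junction genes, 6 were higher and 6 lower in warm minus cold, with a median of -0.02 (-1.15 with the poly-A scaling). E-cadherin, Cdh1 (0.73), Nectin2 (0.56) and Nectin1 (-0.50) differed most, and 0 were 2-fold apart in the 4 comparisons. The 10 genes of divalent cation transport above the floor, 7 of which are also among the thick limb and distal convoluted tubule markers, had a median of 0.47 in warm minus cold (-0.66 with the poly-A scaling). The sodium-calcium exchanger Slc8a1 (0.89) led, followed by the sodium-chloride cotransporter Slc12a3 (0.71) and the chloride channel subunit Bsnd (0.51), and 0 were 2-fold apart.

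**Figure D4:**
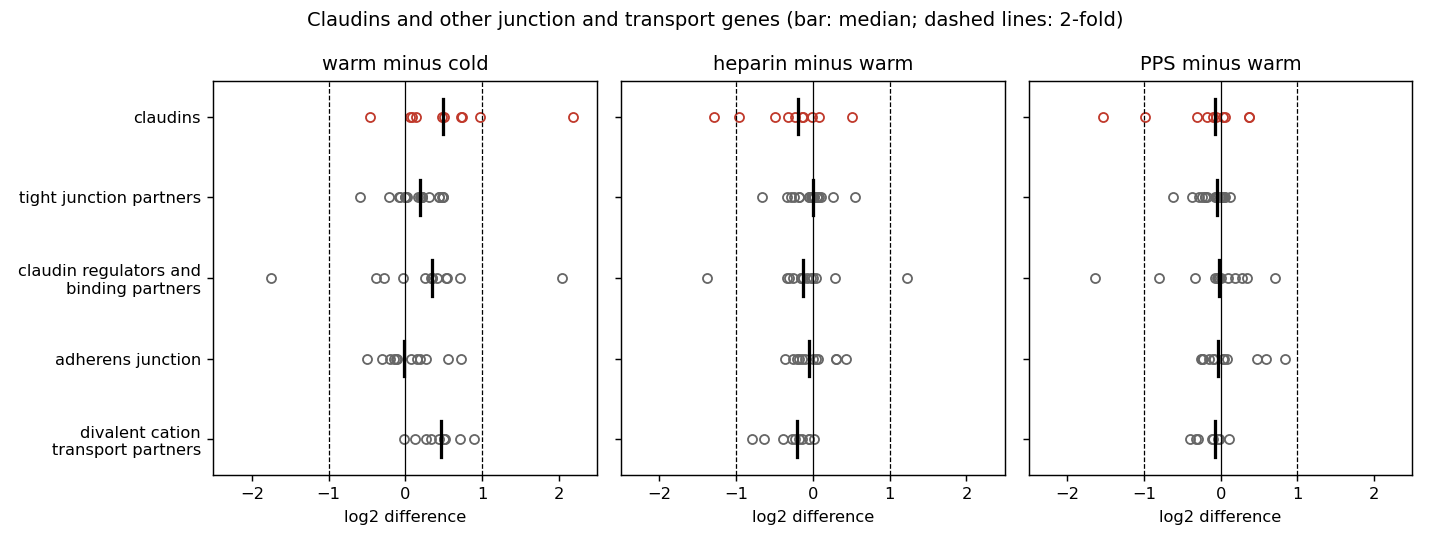
Log2 differences (horizontal axis) of the 10 claudins and of 4 other gene lists (vertical axis, 1 open circle per gene, medians as bars, dashed lines at 2-fold) in warm minus cold, heparin minus warm and PPS minus warm. As deposited the claudin median is 0.49 in warm minus cold, against 0.20 for the 20 tight junction partners and -0.02 for the 12 adherens junction genes; with the poly-A scaling these become -0.64, -0.93 and -1.15.

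Among 13 regulators and binding partners of claudins above the floor, 3 were 2-fold apart in warm minus cold or between 2 of the warm-perfused arrays. Of all genes, 3.64% were 2-fold apart in warm minus cold and 1.86% in heparin minus warm. The share was 2.23% in PPS minus warm and 0.49% in heparin minus PPS. Elf3, an epithelial transcription factor of the ETS family, had 8.68 on the heparin, 8.43 on the PPS, 10.07 on the warm and 8.02 on the cold array. As for Cldn4, warm was highest and cold lowest: Elf3 differed by 2.04 in warm minus cold (0.92 with the poly-A scaling), -1.38 for heparin against warm and -1.63 for PPS against warm. Grhl1, a grainyhead transcription factor, was at 6.27 on the cold array and below the floor on the other 3 arrays. It entered the list through the cold array alone, so its 2-fold difference rests on that array and the floor. Mmp9, a secreted protease, had 6.08 on the heparin, 5.21 on the PPS and 4.86 on the warm array and was below the floor on the cold array. Mmp9 was 1.22 higher on the heparin than on the warm array, where its value lies near the floor of 4.51. The median of the 13 was 0.35 in warm minus cold (-0.78 with the poly-A scaling), -0.13 for heparin against warm and -0.02 for PPS against warm. Epcam, an adhesion protein that binds claudins, was chosen after its values were seen and differed by 0.41 in warm minus cold.

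Cldn4, the claudin with the largest range, was set against 9165 other genes above the floor on all 4 arrays by the Euclidean distance between profiles centred on each gene's mean. The closest were Ch25h, a cholesterol hydroxylase (distance 0.09), Pfkfb3, a regulator of glycolysis (0.15), and Zfand2a, a stress-induced zinc finger protein (0.19). Elf3 was at rank 4 with a distance of 0.19. Ch25h had 8.0 on the heparin, 7.68 on the PPS, 9.18 on the warm and 7.01 on the cold array. Of the 9165 genes, 26 lay within a distance of 0.5 and 183 within 1.

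**Figure D5:**
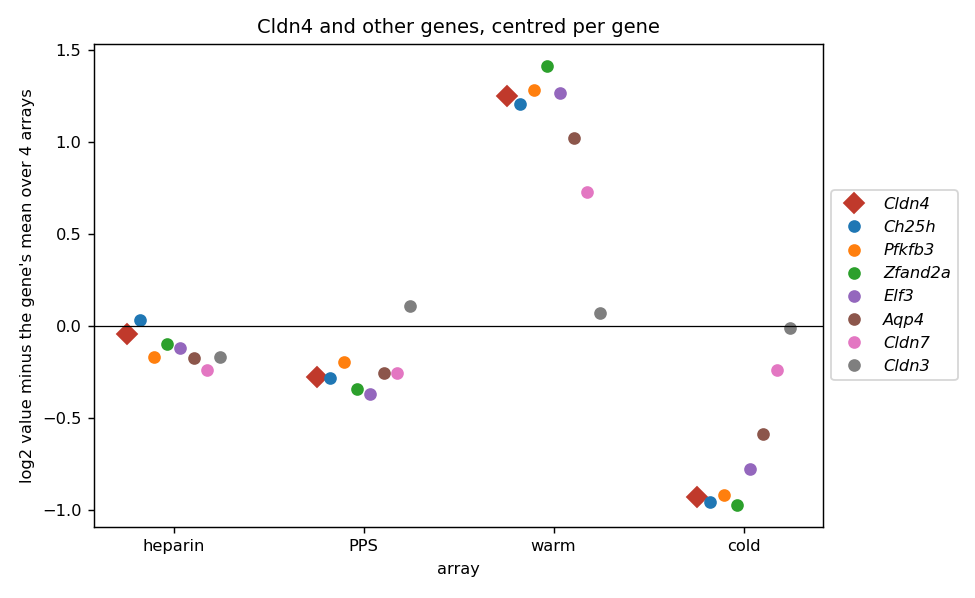
Log2 values minus each gene's own mean over the 4 arrays (vertical axis) on the heparin, PPS, warm and cold arrays (horizontal axis) for Cldn4 (diamond), its 3 closest genes, Elf3, Aqp4, Cldn7 and Cldn3 (circles). Cldn4, Ch25h, Pfkfb3, Zfand2a and Elf3 are highest on the warm and lowest on the cold array, while Cldn3, with a range of 0.28, stays near its mean.

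Outside these 10, the array reads 7 further claudin or claudin-domain genes of the 17 listed, and 3 were above the floor. Cldn12, a claudin of calcium transport, had 9.36 on the heparin, 9.38 on the PPS, 9.30 on the warm and 9.55 on the cold array, and Cldnd1 had 10.74, 10.55, 10.62 and 10.55 in the same order. Cldn11 passed the floor clearly on the warm array alone, at 5.24. Cldn6, Cldn14, Cldn18 and Cldn22 were below the floor on all 4 arrays.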

How the data were processed

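Total RNA was labelled (6 ug per array) and hybridised to 1 Affymetrix rat array per group. The deposited values are log2 expression per probe set; GCRMA is named in the submitters' processing notes (version not given in the sources used here), and the range of the values, 2.11 to 16.4, shows the log2 scale. GCRMA gives all arrays nearly the same distribution and sets weak probe sets by a background model. Of 31099 probe sets, 57 were controls, 20826 had 1 gene symbol, 436 had several and were not used, and 9780 are unnamed here; symbols were updated through Entrez identifiers to RefSeq (GRCr8) for 20758. Values below the floor were raised to it. A gene counted as apart at 2-fold. Without replicates these differences have no test, and the number of arrays limits the precision. The limma fit (limma 3.58.1, R 4.3.3) used values without the floor, and Python 3.11.15 did the rest. The fit and the 2-fold limit were run on simulated arrays with noise drawn from heparin minus PPS. Every simulated warm-perfused array had the same shift and no supplement effect, so this does not cover arrays with such an effect. Claudins and gene lists were chosen with earlier results of these data known. Named were all claudins, list genes 2-fold apart or else the 3 with the largest size of difference in warm minus cold, and the 3 genes closest to Cldn4. Alternatives were the floor (40th or 60th percentile, or none), the mean of all probe sets, scaling to the poly-A controls, quantile and median scaling, and a 1.5-fold limit; for limma, an intensity trend with robust estimation, floored values, probe set means, poly-A scaling and leaving out each warm-perfused array.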

Additional observations from a re-analysis of the deposited data

How the results depend on the processing

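With 1 array per group the differences have no replicate check. Counts of claudins 2-fold apart were unchanged with the 40th or 60th percentile floor, no floor, probe set means, quantile normalization or equal medians. Under these settings every claudin median kept its side, and none moved by over 0.1. Several of them could change little. All claudins were above the floor on every array, so the 40th percentile floor and no floor left every claudin difference as it was. Probe set means can change only Cldn1, and the deposited arrays already have nearly the same distribution. Of 40 single claudin differences, 2 changed sign with probe set means and 1 with equal medians. The 2 were Cldn1 in warm minus cold (-0.01) and in heparin minus warm (-0.0023), so counts by any amount change there. Scaling to the poly-A controls gave 4 claudins 2-fold apart in warm minus cold and 2 in heparin minus warm, against 1 and 1 as deposited, and medians of -0.64, -0.32 and -0.27 in warm minus cold, heparin minus warm and heparin minus PPS, against 0.49, -0.19 and -0.06. By construction it lowers the warm minus cold difference of each claudin, and of any gene not raised to the floor, by 1.13. It changed the sign of 12 of 40 claudin differences, and turned Nphs1 and Wt1 in warm minus cold to -0.071 and -0.12. The mean of all probe sets put Nphs1 (0.59), Wt1 (0.50) and Col1a1 (-0.66) in warm minus cold, Scnn1a (-0.81) in heparin minus warm and Col1a1 (0.92) in PPS minus warm within 2-fold, and the 60th percentile floor did so for Pdgfrb (-0.57) in warm minus cold. A 1.5-fold limit gave 4, 2 and 2 claudins in warm minus cold, heparin minus warm and PPS minus warm, where 10.9%, 5.6% and 5.5% of all genes passed it. Limma called 0 claudins with an intensity trend and robust estimation, with floored values, with probe set means, and without each warm-perfused array in turn (0 to 0). On poly-A scaled values it called 8, among 9278 of 9660 genes. No paired analysis was possible because each group has 1 array.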
